A study of Mus musculus with 6 samples.

Results

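The stress keratins Krt6a, Krt6b, Krt16 and Krt17 are 4 of 35275 gene identifiers in the deposited table and of its 53 keratin genes. They were chosen by name, with earlier results of these data known. All 4 passed the filter of a mean of at least 1 FPKM (fragments per kilobase of transcript, scaled to library depth), which left 11071 genes for testing, and the control mean of each was above that level too. The libraries were RNA-seq of back skin cells of mouse embryos (CD1 IGS strain) at E16.5 (days of gestation), sorted for a green fluorescent histone after the epidermis was lifted off with dispase and dissociated. In K10-spastin embryos, labelled K10rtTA;TREspastin, the keratin 10 promoter drives a doxycycline-dependent activator in suprabasal cells, which switches on spastin, an enzyme that cuts microtubules. The control embryos carry that one word as their label, and the transgenes they held are not given in the sources used. The protocol, which names K10-rtTA, TRE-H2B-GFP and TRE-Spastin for the dams, applies to all samples: doxycycline chow from E14.5 and the same sort. The labels count 3 K10-spastin and 3 control RNA samples as independent. How many embryos each one pooled is not given, and the p-values reflect the variation among these 6 samples, which may be technical.

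Keratins are the intermediate filament proteins of epithelial cells, built from pairs of a type I and a type II chain. Resting epidermis makes the pair of Krt5 and Krt14 in its basal layer and the pair of Krt1 and Krt10 in its suprabasal layers. Krt6a and Krt6b (type II) and Krt16 and Krt17 (type I) are known as stress or wound keratins, since keratinocytes between hair follicles switch them on after injury and in hyperproliferative skin disease. They are also made in hair follicles and other appendages, and in the embryo in the periderm, the outermost layer that is later shed. In a bulk sample, more cells of a type and more RNA per cell cannot be told apart.

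Depth, read from the step size of low values, was 17.3, 19.6 and 17.4 M (mega) fragments in K10-spastin libraries 1 to 3 and 22.5, 16.0 and 16.6 M in controls 1 to 3. Spast, the induced gene, was at 1431, 639 and 213 FPKM in the K10-spastin libraries, against 21.2, 24.0 and 21.4 FPKM in controls. The groups did not overlap, and Spast rose by 4.65 ± 0.60 (SE) on the log2(FPKM + 1) scale, with a limma adjusted p of 0.00865. The Spast value may count transgene and mouse gene together, since how reads of each were counted is not given. On the leading principal component, with 62.1% of the variance, K10-spastin 1 had a score of 62.5, the farthest from the controls, with K10-spastin 2 and 3 at 31.5 and 24.3 and the controls between -43.7 and -36.1. Krt1 and Krt10 are 2 of 6 listed markers of suprabasal cells. Together they made up 55.4% to 81.4% of all keratin FPKM in K10-spastin libraries and 85.2% to 88.8% in controls. Of the 6 markers, all tested, 0 were called higher and 1, Krt10, lower, beside 5.14% and 5.90% of all genes tested. Their median log2 change was -0.22. Krtdap and Sbsn were higher, by 0.21 and 0.75 on the log2(FPKM + 1) scale, though not called, and the other suprabasal markers were lower.

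Krt6a, Krt6b and Krt17 rose in K10-spastin cells, and were among the most changed genes of the table. On the log2(FPKM + 1) scale Krt6b had the largest change of the 11071 genes tested, Krt6a ranked 3 and Krt17 ranked 22. These ranks hold for that scale, which understates changes of genes low in controls, such as the protease Klk6 at 0.175 to 0.415 FPKM. Krt16 ranked 45 and did not pass the test, although its groups did not overlap. So 3 of 4 members were called higher, beside 5.14% of all genes tested called higher and 5.90% called lower. Since the members were chosen with earlier results of these data known, the ranks and counts here describe them and do not test the set. Every K10-spastin library lay above every control library for all 4 members, as for 15.6% of all genes tested.

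**Figure D1:**
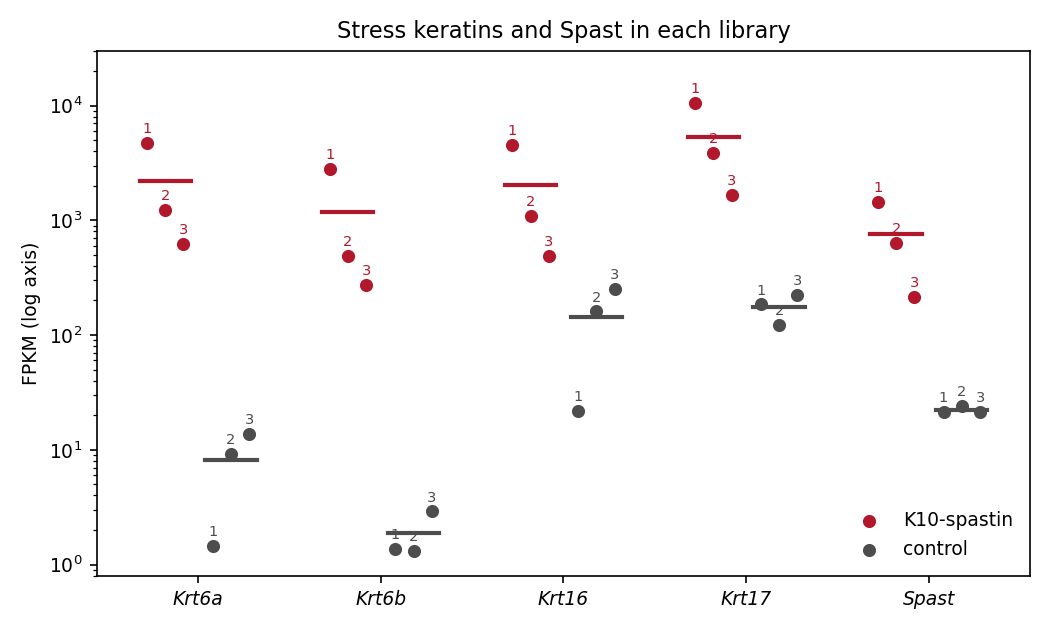
FPKM of the 4 stress keratins and Spast in each of the 6 libraries, on a log axis, with K10-spastin left of control. Points are libraries, numbered by replicate, and bars are group means. The K10-spastin points lie above the control points for each of the 5 genes, and K10-spastin 1 is the highest of its group.

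Krt6a (ENSMUSG00000058354), a type II keratin of wound edges, nail bed and follicle companion cells, was at 4757, 1226 and 621 FPKM in K10-spastin libraries 1 to 3, against 1.46, 9.22 and 13.7 FPKM in controls 1 to 3. The lowest K10-spastin library was 45.4-fold above the highest control. Group means were 2201 ± 2234 FPKM in K10-spastin and 8.12 ± 6.19 FPKM in control (SD, n = 3 each), a 271-fold ratio of means. On the log2(FPKM + 1) scale Krt6a rose by 7.74 ± 0.87 (SE), with a limma adjusted p of 0.00557.

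Krt6b (ENSMUSG00000023041), the neighbouring and closely related type II keratin, was at 2785, 490 and 273 FPKM in K10-spastin libraries 1 to 3, against 1.38, 1.32 and 2.90 FPKM in controls. All 3 controls were near the bottom of what was measured for any member, and the lowest K10-spastin library was 94.1-fold above the highest control. Group means were 1183 ± 1392 FPKM in K10-spastin and 1.87 ± 0.90 FPKM in control (SD, n = 3 each). Krt6b rose by 8.02 ± 0.77 (SE) on the log2(FPKM + 1) scale, with a limma adjusted p of 0.00435.

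Krt6a and Krt6b lie next to each other on chromosome 15, with 0 protein-coding genes between them in GENCODE M21. Their transcripts are 97.1% identical over the best stretch of 1189 bases and 91.1% identical over 2274 bases. Of 100-base windows, 29.1% for Krt6a and 30.6% for Krt6b also occur in another gene. Of 50-base windows it was 45.5% for Krt6a and 50.1% for Krt6b, while the read length is not stated in the labels. The other genes include the basal keratin Krt5, for Krt6a at both lengths and for Krt6b at 50 bases. How shared reads were counted is not stated in the labels, so the split between Krt6a and Krt6b is uncertain. With the pair summed before the test, the change was 7.94 ± 0.84 (SE) on the log2(FPKM + 1) scale, with a limma adjusted p of 0.00503.

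Krt17 (ENSMUSG00000035557), a type I keratin of wounded epidermis, follicles and early embryonic skin, was the most abundant member in every K10-spastin library. Its levels were 10480.3, 3859 and 1651 FPKM in K10-spastin libraries 1 to 3, against 184 (control 1), 123 (control 2) and 223 FPKM (control 3). The lowest K10-spastin library was 7.42-fold above the highest control. Group means were 5330.03 ± 4595 FPKM in K10-spastin and 177 ± 50.5 FPKM in control (SD, n = 3 each), and Krt17 rose by 4.56 ± 0.61 (SE) on the log2(FPKM + 1) scale, with a limma adjusted p of 0.00955. Of its windows, 0% of those of 100 bases and 3.99% of those of 50 bases occur in another gene, and Krt14, the basal type I keratin, is 90.7% identical to it over 754 bases.

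Krt16 (ENSMUSG00000053797), the type I partner most often paired with Krt6, was at 4513, 1082 and 492 FPKM in K10-spastin libraries 1 to 3, against 21.7, 160 and 253 FPKM in controls. Control 1 was well below the other controls, and the lowest K10-spastin library was 1.95-fold above the highest control. Group means were 2029 ± 2171 FPKM in K10-spastin and 145 ± 116 FPKM in control (SD, n = 3 each), a 14-fold ratio of means. The difference was 3.78 ± 1.06 (SE) on the log2(FPKM + 1) scale, with a limma adjusted p of 0.0605, above the threshold of 0.05. Without control 1 the difference was 2.73, and with control 1 and K10-spastin 1 both left out it was 1.85, with adjusted p-values of 0.123 and 0.0608. Without K10-spastin 3 it was 4.50 and passed, with an adjusted p of 0.0442.

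Control 1 was low in other genes along with Krt16 and Krt6a. Fosl1, a subunit of the AP-1 transcription factor, was at 6.07 FPKM in control 1 and at 48.2 and 76.1 FPKM in controls 2 and 3. The summed level of 6 dermal fibroblast markers was 6.44 FPKM in control 1 and 22.5 and 42.3 FPKM in controls 2 and 3, against 0.791 to 3.03 FPKM in K10-spastin libraries. A level at least 5-fold lower in control 1 than in each other control, a measure chosen after the values were seen, held for 140 of the 11071 genes tested (1.26%). It held for 7 of 12 tested genes of a list of other wound genes, and for 3 of 6 tested periderm markers, among them Krt19, which was at 0.996 FPKM in control 1 and at 9.29 and 10.5 FPKM in the other controls. The part of any of these in the low Krt16 and Krt6a of control 1 was not tested.

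Krt16 and Krt17 lie side by side on chromosome 11, with 0 protein-coding genes between them in GENCODE M21. The unprocessed pseudogene Gm11597, listed at 0.239 FPKM in K10-spastin 1 and at 0 in the other libraries, is 92.3% identical to Krt16 over 1011 bases. Another gene holds 24.3% of the 100-base windows and 37.6% of the 50-base windows of Krt16. The genes that share them are Gm11597 and Krt14 at 100 bases, and also Krt17 at 50 bases. Krt14 was at 606 to 2731 FPKM in K10-spastin libraries and 913 to 1833 FPKM in controls. How reads shared with Krt14 were counted is not stated in the labels. By estimated fragments, Krt16 rested on 765 fragments in control 1, and the thinnest member value, Krt6b in control 2, on 47.2 fragments.

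The spread among the K10-spastin libraries was wide and followed 1 order. Krt6a, Krt6b, Krt16 and Krt17 were each highest in K10-spastin 1 and lowest in K10-spastin 3, with a highest-to-lowest ratio of 7.67 for Krt6a, 10.2 for Krt6b, 9.16 for Krt16 and 6.35 for Krt17. Spast had the same order, with a ratio of 6.72. The same order was found in 11.2% of all genes tested and in 39.7% of the 569 genes called higher. Among controls, Spast differed by 1.13-fold at most, Krt17 by 1.82-fold, Krt6b by 2.20-fold, Krt6a by 9.38-fold and Krt16 by 11.6-fold.

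Set against Spast in the same library, Krt17 stood at an almost even level. Per FPKM of Spast there were 7.32, 6.03 and 7.75 FPKM of Krt17 in K10-spastin libraries 1 to 3, and 8.69, 5.10 and 10.4 FPKM in controls 1 to 3. The K10-spastin ratios spanned 1.28-fold. A span as narrow was found in 18 of the 11071 genes tested (0.163%) and in 4 of the 569 genes called higher (0.703%). Both counts include Krt17, which set the limit, and Spast, whose ratio to itself is even by construction. This comparison was chosen after the values were seen. In K10-spastin the Spast value may include the transgene, and the transgenes held by the controls are not given. Krt6a per FPKM of Spast was 3.32, 1.92 and 2.91 in K10-spastin libraries, against 0.0687, 0.384 and 0.64 in controls, so its groups were apart. Krt6b per FPKM of Spast was 1.95, 0.766 and 1.28 in K10-spastin libraries, against 0.0649, 0.0549 and 0.136 in controls, and with a span of 2.54-fold it was the least even member in K10-spastin. Krt16 per FPKM of Spast was 3.15, 1.69 and 2.31 in K10-spastin libraries, against 1.02, 6.68 and 11.8 in controls, and the groups overlapped.

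**Figure D2:**
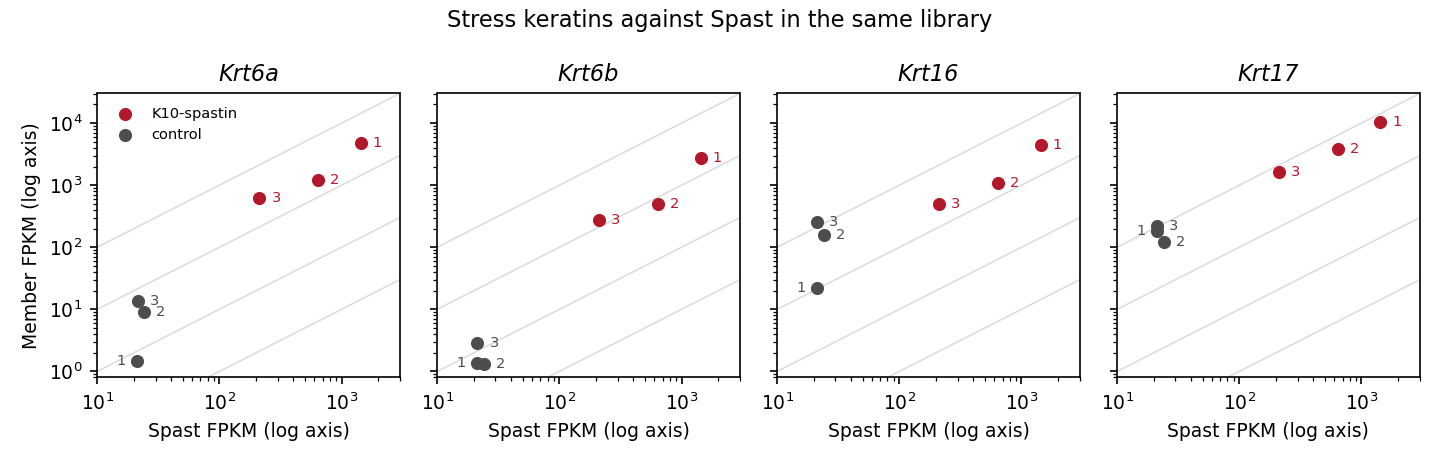
FPKM of each stress keratin against FPKM of Spast in the 6 libraries, both axes logarithmic, with K10-spastin and control points marked apart. Within K10-spastin the 4 keratins are ordered as Spast is, which runs between 213 and 1431 FPKM, while the controls sit close together on the Spast axis, between 21.2 and 24.0 FPKM.

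Genes with a pattern most like each member's over the 6 libraries were sought among tested genes. Unnamed, predicted and clone-named genes and pseudogenes were left out. The measure was the root mean square difference of log2(FPKM + 1) after centring each gene on its mean. For Krt17 the nearest gene was Spast (0.33), followed by Hsd17b2 (0.36), a steroid dehydrogenase, and Tubb2b (0.44), a beta-tubulin. Hsd17b2 was at 167, 57.1 and 30.7 FPKM in K10-spastin libraries, against 1.18, 1.71 and 1.42 FPKM in controls. For Krt16 the nearest was Epgn (0.45), an EGF receptor ligand, at 107, 51.7 and 26.3 FPKM in K10-spastin libraries, against 0.177, 5.61 and 6.25 FPKM in controls. Epgn thus shared the low value of Krt16 in control 1, and it rose by 3.81 ± 0.77 (SE) on the log2(FPKM + 1) scale, with a limma adjusted p of 0.0269.

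Krt6a and Krt6b were near neighbours of each other, at 0.70. The split of shared reads between them is uncertain, and its part in this likeness was not tested. The nearest gene to Krt6b was Tslp (0.69), a cytokine released by keratinocytes, at 564, 301 and 50.96 FPKM in K10-spastin libraries, against 0.196, 0.331 and 0.373 FPKM in controls. Sprr2h, a cornified envelope precursor (0.80 from Krt6a), and Klk6, a serine protease (0.71 from Krt6b), followed. Between the type I and type II members the difference was larger, from 1.77 for Krt6b with Krt17 to 2.32 for Krt6b with Krt16, and Krt16 stood 1.19 from Krt17. By likeness to Spast all 11070 other tested genes were ordered, unnamed and predicted genes and pseudogenes included. In that order Krt17 was in place 2, Krt16 in place 71, Krt6a in place 336 and Krt6b in place 339. These orders describe 6 libraries in 2 groups and carry no test.

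As a share of all keratin FPKM, the 4 members together reached 36.7%, 18.3% and 7.79% in K10-spastin libraries 1 to 3, against 0.304%, 0.598% and 0.868% in controls. The means were 20.9% ± 14.6 in K10-spastin and 0.590% ± 0.282 in control (SD, n = 3 each), and the groups did not overlap. Without K10-spastin 1 the K10-spastin mean was 13.1%. Krt17 alone held 17.1%, 10.6% and 4.23% in K10-spastin libraries, against 0.268%, 0.250% and 0.393% in controls. FPKM is scaled by length, so levels of different genes can be set side by side, as far as the authors' counting allows.

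By FPKM, Krt17 was the keratin in place 3 in all 3 K10-spastin libraries, behind Krt1 and Krt10, and in places 7 to 8 in controls. Krt6a took places 4 to 6 in K10-spastin libraries and 15 to 17 in controls. Krt16 took places 5 to 9 in K10-spastin libraries and 7 to 11 in controls. Krt6b took places 6 to 11 in K10-spastin libraries and 18 to 21 in controls. The gap in rank was thus widest for the pair of Krt6 genes.

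**Figure D3:**
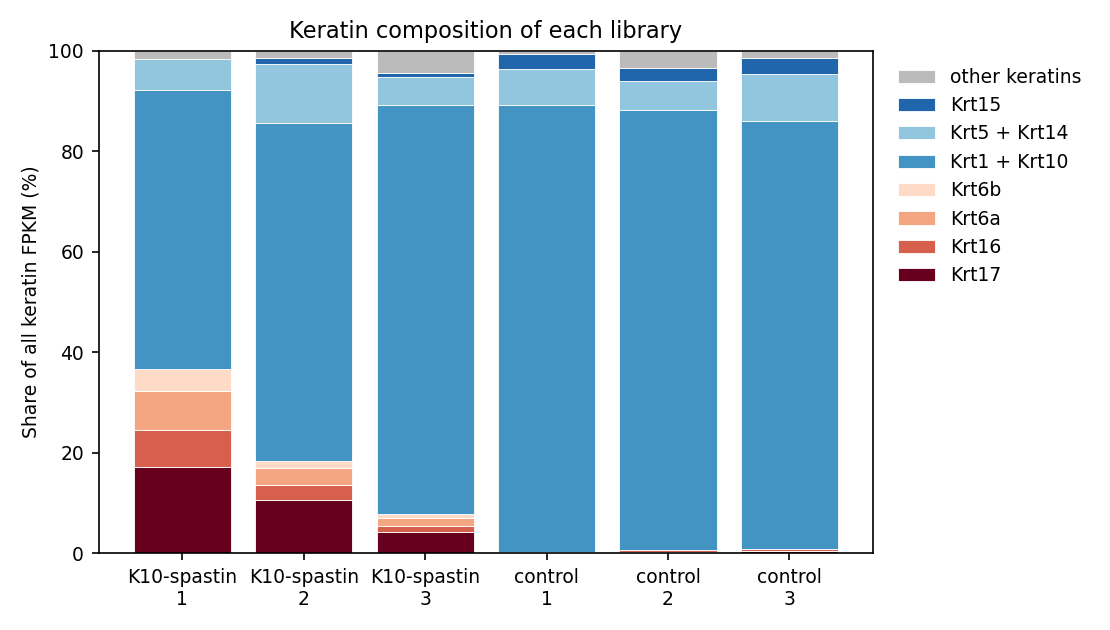
Share of all keratin FPKM taken by the stress keratins, by Krt1 and Krt10, by Krt5 and Krt14, by Krt15 and by all others, in each library, with K10-spastin left of control. The stress keratins take 7.79% to 36.7% of keratin FPKM in K10-spastin libraries and under 1% in controls.

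Total keratin FPKM overlapped between the groups. All keratins summed to 61369, 36330.3 and 38983.5 FPKM in K10-spastin libraries 1 to 3, against 68811, 49053.7 and 56634 FPKM in controls. Without the 4 members the sums were 38833, 29675 and 35946 FPKM in K10-spastin libraries, against 68602, 48760.2 and 56142 FPKM in controls, so the groups were apart. The suprabasal type I keratin Krt10 was at 16977, 13075 and 17318 FPKM in K10-spastin libraries, against 32513, 23698 and 26802 FPKM in controls. It fell by 0.81 ± 0.20 (SE) on the log2(FPKM + 1) scale, with a limma adjusted p of 0.0438, and this call was lost under 10 of 18 alternatives. Krt1, its type II partner, was 0.69 ± 0.22 (SE) lower on that scale with a limma adjusted p of 0.0838, above the threshold.

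The balance of type I and type II chains differed among the members. The ratio of summed Krt6a and Krt6b to summed Krt16 and Krt17 was 0.503, 0.347 and 0.417 in K10-spastin libraries, against 0.0138, 0.0373 and 0.0349 in controls. Over all keratins, the ratio of type II to type I FPKM was 0.754, 0.799 and 0.868 in K10-spastin libraries and 0.903, 0.868 and 0.822 in controls. In these sums the members' type II share was thus far lower in controls, while the ratio over all keratins overlapped between the groups.

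The ratios between single members were compared in 6 pairs with exact two-sided permutation tests, for which 3 against 3 cannot give a p below 0.1. The ratios printed are of FPKM, the tests were run on the log2 ratio of FPKM + 1, and the log2 difference of the printed ratios is given beside each tested value. The ratio of Krt6a to Krt16 was 1.05, 1.13 and 1.26 in K10-spastin libraries, against 0.0671, 0.0575 and 0.0542 in controls, a log2 difference of 3.96 after adding 1 and of 4.27 without, with an exact p of 0.1 for both (0.15 adjusted over the 6 pairs). The ratio of Krt6b to Krt17 was 0.266, 0.127 and 0.165 in K10-spastin libraries, against 0.00747, 0.0108 and 0.0130 in controls, a log2 difference of 3.46 after adding 1 and of 4.13 without, again with an exact p of 0.1 for both. All 4 ratios of a Krt6 gene to Krt16 or Krt17 were apart between the groups and reached the smallest p possible. Krt6a over Krt6b, at 1.71, 2.50 and 2.27 in K10-spastin libraries, against 1.06, 6.99 and 4.71 in controls, overlapped. Its log2 difference was -0.27 after adding 1 (exact p = 0.7) and -0.61 without (exact p = 0.5). Krt16 over Krt17, at 0.431, 0.280 and 0.298 in K10-spastin libraries, against 0.118, 1.31 and 1.13 in controls, overlapped too. Its log2 difference was -0.78 after adding 1 and -0.76 without, with an exact p of 0.4 for both. Both overlaps rested on control 1: without it the log2 differences after adding 1 were -0.93 for Krt6a over Krt6b and -1.88 for Krt16 over Krt17, the groups were apart, and each reached the smallest p then possible (exact p = 0.2). Without control 2 these log2 differences were 0.11 and -0.17, and without control 3 they were -0.0022 and -0.28, with groups that overlapped.

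Of the 18 other keratins tested, 2 rose and 4 fell, beside 5.14% called higher and 5.90% called lower of all genes tested. Their median log2 change was -0.71, beside 6.15 over the 4 members and -0.09 over all genes tested. Krt80, a type II keratin of differentiating epithelia, was at 448, 231 and 362 FPKM in K10-spastin libraries, against 25.3, 31.9 and 45.3 FPKM in controls. It rose by 3.29 ± 0.29 (SE) on the log2(FPKM + 1) scale, with a limma adjusted p of 0.00391, and unlike the members it was not highest to lowest in the order of Spast. Krt75, a type II keratin of the follicle companion layer and a close relative of Krt6, was at 4.13, 4.16 and 7.48 FPKM in K10-spastin libraries and was listed at 0 in all 3 controls (limma adjusted p = 0.00418).

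The basal keratin Krt15 was at 70.0, 449 and 261 FPKM in K10-spastin libraries, against 2095, 1237 and 1835 FPKM in controls. It fell by 3.05 ± 0.62 (SE) on the log2(FPKM + 1) scale, with a limma adjusted p of 0.0269, a call lost under 4 of 18 alternatives, among them each that left out 1 control. Krt13 and Krt32 also fell, with limma adjusted p-values of 0.0341 and 0.0163. The call of Krt13 was lost under 7 of 18 alternatives and that of Krt32 under 3 of 17. The count of 4 keratins lower was 0 without control 2 or control 3. Over all genes, the 653 called lower became 70 without control 2 and 32 without control 3. The basal pair did not pass: Krt5 was 0.78 ± 0.38 (SE) lower and Krt14 0.07 ± 0.53 (SE) higher on the log2(FPKM + 1) scale, with limma adjusted p-values of 0.202 and 0.939. Krt14 was at 2731, 1533 and 606 FPKM in K10-spastin libraries, against 1301, 913 and 1833 FPKM in controls, and its sign depended on the libraries and scaling used.

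**Figure D4:**
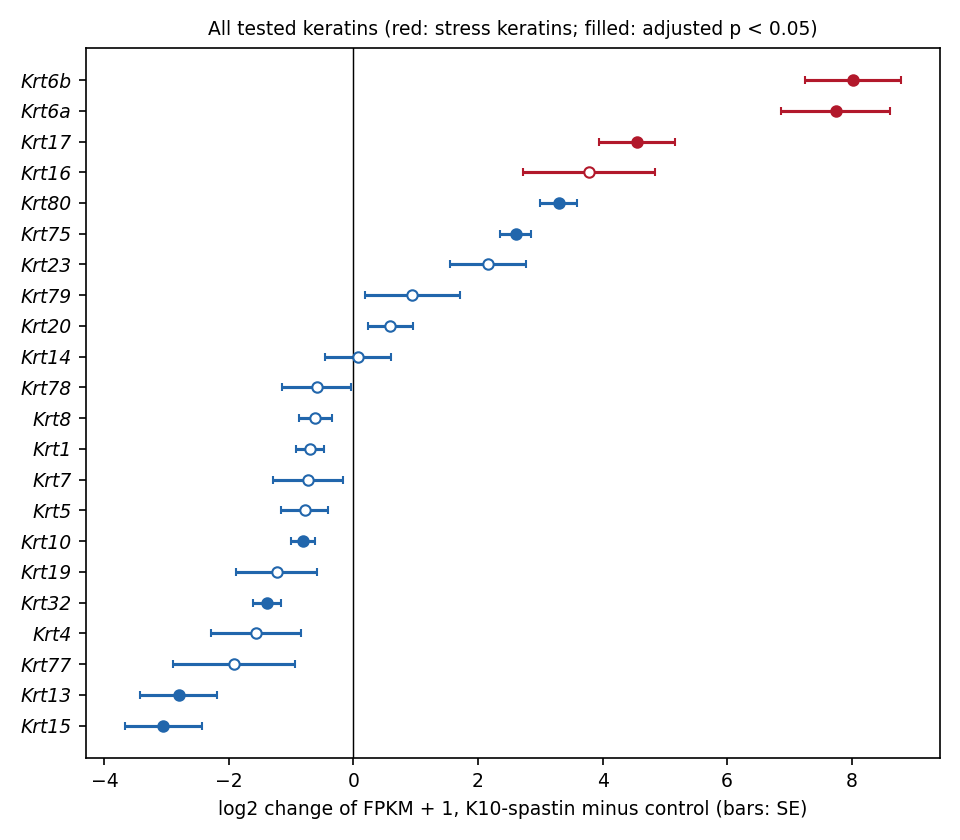
Log2 change, K10-spastin minus control on the log2(FPKM + 1) scale, of the tested keratins, with error bars of 1 SE. Krt6b, Krt6a and Krt17 are called and have the largest changes to the right, and Krt16 is to the right but not called.

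Marker lists of other cell types were read beside the members. For each list, the shares called over all genes tested were 5.14% higher and 5.90% lower. Of 10 hair follicle genes, 5 were tested. The 10 summed to 31.9 to 63.2 FPKM in K10-spastin libraries and 12.9 to 42.1 FPKM in controls. Sox9, a transcription factor also of follicle stem cells, was the largest part except in control 1, where Lef1 was at 5.19 FPKM. Sox9 was at 55.8, 42.02 and 21.3 FPKM in K10-spastin libraries, against 4.58, 15.8 and 22.2 FPKM in controls, and was not called (limma adjusted p = 0.11). Of the others, Krt75 rose, while Lhx2 and Lef1, transcription factors of the follicle bud, fell. The 8 periderm genes, of which 6 were tested, 0 called by limma and 1 higher at an unadjusted p under 0.05, summed to 202 to 537 FPKM in K10-spastin libraries and 30.0 to 134 FPKM in controls, mainly from Krt23. Krt23 was 2.16 ± 0.62 (SE) higher on the log2(FPKM + 1) scale (limma adjusted p = 0.0628). The median log2 change of the 6 tested periderm genes was -0.67: it was negative for Krt4, Krt19, Krt7 and Krt8, and positive for Krt23 and Sprr3. Krt4 was at 0.0541 to 0.892 FPKM in K10-spastin libraries and 0.104 to 6.49 FPKM in controls. Of 5 tested granular genes, Ivl and Tgm1, which build the cornified envelope, rose. The other 3 were not called, among them Lor, the most abundant (limma adjusted p = 0.583). The part of these cell types in the stress keratin levels was not tested.

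Of 21 tested regulators known to act on stress keratin genes, 1 rose and 6 fell, with a median log2 change of -0.64. Over all genes tested, 5.14% were called higher and 5.90% lower. Among the 6 were Fos, Fosb and Fosl2, subunits of AP-1. Fosb was at 38.2, 37.5 and 107 FPKM in K10-spastin libraries, against 472, 639 and 893 FPKM in controls, and fell by 3.57 ± 0.43 (SE) on the log2(FPKM + 1) scale, with a limma adjusted p of 0.00712. Fos was at 639, 796 and 1228 FPKM in K10-spastin libraries, against 2329, 2106 and 2470 FPKM in controls, and fell by 1.42 ± 0.24 (SE) on that scale, with a limma adjusted p of 0.0161. Fosl2, Atf3, Gli1 and Myc were the others that fell. Cebpb, a transcription factor of differentiating keratinocytes, rose, at 540, 358 and 319 FPKM in K10-spastin libraries, against 147, 232 and 224 FPKM in controls (limma adjusted p = 0.0476), a call lost under 13 of 18 alternatives, among them each that left out 1 control, K10-spastin 1 or K10-spastin 2. The count of 6 lower ranged from 1 without control 3 and 2 without control 2 to 13 with array weights. Under these settings 32, 70 and 1771 of all genes were called lower, beside 653 in the main fit.

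Of 21 tested ligands and receptors upstream of these keratins, 7 rose and 1 fell, with a median log2 change of 0.49. The shares over all genes tested were 5.14% called higher and 5.90% called lower. Il1f9, which encodes the cytokine IL-36 gamma, was at 54.2, 22.3 and 79.8 FPKM in K10-spastin libraries, against 2.83, 6.75 and 6.96 FPKM in controls, and rose by 2.93 ± 0.49 (SE) on the log2(FPKM + 1) scale (limma adjusted p = 0.0163). Its receptor subunit Il1rl2 rose by 1.30 ± 0.26 (SE) on that scale, with a limma adjusted p of 0.0267. Il22ra1, a receptor chain for IL-22, rose as well, by 1.11 ± 0.21 (SE), with a limma adjusted p of 0.0209. Epgn, Il1a, Il1f8 and Tnfrsf1a were the other 4 that rose, and Ifngr1 fell. The count of 7 higher was 0 without control 2 or control 3, and 2 without control 1. Over all genes, the 569 called higher became 142 without control 2, 114 without control 3 and 219 without control 1. The calls of Il1f9, Il1rl2, Il22ra1 and Tnfrsf1a were lost under 3, 6, 4 and 9 of 18 alternatives.

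Of 12 tested other wound and hyperproliferation genes, 3 rose and 0 fell, with a median log2 change of 0.99. Among all genes tested, 5.14% were called higher and 5.90% lower. S100a8, an alarmin, was at 23.1, 4.56 and 5.73 FPKM in K10-spastin libraries and listed at 0 in all 3 controls. Its partner S100a9 was at 45.5, 27.0 and 41.1 FPKM in K10-spastin libraries, against 0.689, 6.78 and 8.31 FPKM in controls, and rose by 2.94 ± 0.62 (SE) on the log2(FPKM + 1) scale (limma adjusted p = 0.0297). Defb14, a beta-defensin, was the other gene that rose. The protease inhibitor Serpinb2 was at 205, 89.1 and 62.0 FPKM in K10-spastin libraries, against 6.17, 54.1 and 35.6 FPKM in controls, and missed the threshold, with a limma adjusted p of 0.112. The count of 3 was 0 without control 3 and 1 without control 2. Over all genes, the 569 called higher became 114 without control 3 and 142 without control 2. The calls of S100a8, S100a9 and Defb14 were lost under 2, 6 and 1 of 18 alternatives.

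Of 12 tested keratin-binding and desmosome plaque proteins, 0 were called by limma, and at an unadjusted p under 0.05 there were 1 higher and 2 lower. For this list and the proliferation genes below, the shares called over all genes tested were 5.14% higher and 5.90% lower. The desmosome linker Dsp was 0.22 ± 0.14 (SE) lower and the 14-3-3 protein Sfn, known to bind Krt17, was 0.45 ± 0.23 (SE) higher on the log2(FPKM + 1) scale, with limma adjusted p-values of 0.316 and 0.228. Of 17 proliferation genes, 0 were called by limma and 0 had an unadjusted p under 0.05, with a median log2 change of 0.45. Their summed level was 165, 523 and 411 FPKM in K10-spastin libraries, against 271, 269 and 296 FPKM in controls. K10-spastin 1, highest in each stress keratin, had the lowest sum, and 14 of the 17 genes were lowest in it of the 6 libraries. Without K10-spastin 1, 9 of the 17 were called higher, beside 691 of all genes. With array weights there were 10, beside 1535 of all genes. With control 1 and K10-spastin 1 left out together there were 6, beside 639 of all genes, and 0 under each other alternative. In the main fit, 569 of all genes were called higher.

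**Figure D5:**
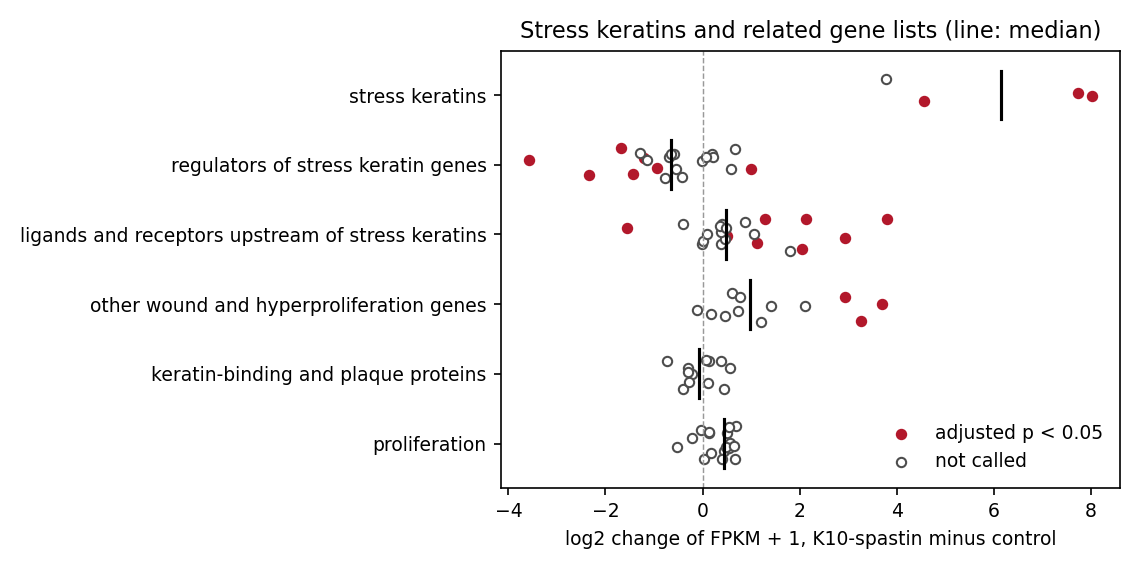
Log2 change, K10-spastin minus control on the log2(FPKM + 1) scale, of the tested genes of the stress keratins and of each gene list. Points are genes, marked where called, and bars are medians, which run from -0.64 for the regulators to 6.15 for the stress keratins.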

How the data were processed

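Messenger RNA was sequenced in 3 K10-spastin and 3 control libraries. The deposited table holds FPKM, computed by the authors, with 1 column per library. Per the submitters' processing notes, CASAVA and TopHat2 were used. Which program counted fragments, on which build, with which annotation and with what strand setting was not given in the sources used here, and coordinates are left out. Gene names matched 34490 of 35275 identifiers. Since the values are FPKM, no count test was run. Depth was read from the step size of 14953 genes with 1 annotated transcript: 90.7% to 91.6% of values up to 20 fragments were whole within 0.05. It limits precision to a floor of 3 fragments, or 0.133 to 0.187 FPKM in a 1 kb transcript, for counting error only.

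Genes averaging 1 FPKM or more were tested on log2(FPKM + 1), which understates changes of low genes, with limma 3.58.1 (lmFit, eBayes with a trend, two-sided) in R 4.3.3, and called at a Benjamini-Hochberg adjusted p under 0.05 over all 11071 genes. No covariate or block was used. The script was tested on simulated data. The members and lists were chosen with earlier results of these data known. The naming rule took the members, Spast, the 12 highest and all called keratins, per list the 3 genes with the smallest p and the 3 highest, and 3 genes per member by likeness; not all of them are reported here, and genes named beyond it (Krt4, Krt19, Fosl1 and list genes named as called) were chosen after their values were seen. Il1f8 and Il1f9 were matched to Il36b and Il36g through RefSeq synonyms. Copies were found with BLAST 2.17.0 in GENCODE M21 transcripts, whose lengths also served for depth; the table may rest on another annotation. Promoter motifs were not searched. Alternatives were a filter at 5 FPKM or none, pseudocounts of 0.1 and 0.5, median-of-ratios, quantile and other-gene scaling (to genes other than keratins and Spast), no trend, robust variances, array weights, the replicate block, each library left out and, added after seeing the data, control 1 and K10-spastin 1 left out together. Python 3.11.15 ran the rest.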

Additional observations from a re-analysis of the deposited data

How the results depend on the processing

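Krt6a, Krt6b and Krt17 were called higher under all 18 alternatives, with log2 changes of 6.16 to 8.40 for Krt6a, 6.93 to 8.72 for Krt6b and 3.75 to 5.21 for Krt17. Krt16 was called under 1 of the 18, without K10-spastin 3; its change was 2.73 to 4.50 when 1 library was left out and 2.06 with array weights. Genes called higher numbered 319 with no filter, 1535 with array weights and 114 (without control 3) to 691 (without K10-spastin 1) with 1 library left out, beside 569; without control 1, control 2 and K10-spastin 2 there were 219, 142 and 360. Genes called lower numbered 348 with no filter, 414 with the filter at 5 FPKM, 1771 with array weights and 32 (without control 3) to 701 (without K10-spastin 3) with 1 library left out, beside 653; without control 1, control 2 and K10-spastin 2 there were 229, 70 and 344. Scaling to other genes gave 541 higher and 1089 lower. Median-of-ratios scaling moved the median log2 change of all genes by 0.13 and gave 789 higher and 645 lower. The change of Krt14 turned to -0.017 with quantile normalization, -0.63 with array weights and -0.42 with control 1 and K10-spastin 1 left out together, and ran from -0.43 to 0.66 with 1 library left out. The log2 difference of the ratio of Krt6a to Krt6b ran from -0.93 to 0.11 with 1 library left out, positive without control 2. The cause of these changes was not tested. The summed share of the 4 members was 1.66% of all FPKM in K10-spastin and 0.0523% in control, and 60.1% in K10-spastin and 4.48% in control of keratin FPKM without Krt1 and Krt10.

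Same-numbered libraries did not deviate together: their deviations from the group means correlated at -0.13, -0.38 and -0.05, and 0 of 3 correlated best with their own number. With the replicate block, 274 genes were called higher and 218 lower, and the adjusted p was 0.0190 for Krt6a, 0.0143 for Krt6b, 0.0181 for Krt17 and 0.115 for Krt16 (limma).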
